A study of Mus musculus with 6 samples.

Results

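Vldlr and 7 other genes of hepatic lipoprotein uptake were read in the hepatocytes of mice with CCl4-induced fibrosis. The 8 genes, out of 34745 in the count tables, were chosen by symbol: the lipoprotein receptors Vldlr, Lrp1, Scarb1 and Lsr, the sorting receptor Sort1, the receptor chaperone Lrpap1, and the lipases Lipc and Lpl. They were proposed with the FOXA2H-KO against FOXA2f/f contrast already in view, so their values in that contrast are given as a description and without a test. Vldlr was the member that stood apart. It was at 10.5 ± 0.993 CPM (counts scaled to library size, SD, n = 3) in FOXA2f/f and 33.4 ± 8.92 CPM in FOXA2H-KO hepatocytes, and the groups did not overlap. In the other 7 genes the groups overlapped, with log2 fold changes between −0.35 and 0.08.

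Both groups were male mice with Foxa2 alleles flanked by loxP sites, 12 weeks of age, and both received CCl4, a toxin that injures hepatocytes and leads to fibrosis, over 4 weeks (0.25 ml/kg per injection, 2 injections a week). The FOXA2f/f group was given AAV8-TBG-Control virus and the FOXA2H-KO group AAV8-TBG-Cre virus, 2 weeks ahead of the first CCl4 dose. The TBG promoter is active in hepatocytes, so that Foxa2, a forkhead transcription factor gene, is deleted in these cells and not in the other cells of the liver. Hepatocytes were obtained by collagenase perfusion and low-speed centrifugation, and 3 RNA-seq libraries per group were compared, numbered 1, 2 and 4 in each group.

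The liver clears triglyceride-rich and cholesterol-rich particles from blood through receptors that bind apolipoproteins on the particle surface. Members of the LDL receptor family, such as Vldlr and Lrp1, carry bound particles into the cell by endocytosis, while Scarb1 takes cholesteryl ester from HDL without taking in the particle. Lipases first trim the triglyceride of the particle, and the healthy adult liver is known for low Vldlr expression compared with heart, muscle and fat.

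The total count per library was between 20983455 and 28327765, and the TMM scaling factors ran from 0.87 in FOXA2f/f 2 to 1.12 in FOXA2H-KO 1. Foxa2 (chromosome 2, 148042877 to 148046969, minus strand, GRCm38) had 442, 246 and 516 counts in FOXA2f/f libraries 1, 2 and 4, and 28, 19 and 35 in the FOXA2H-KO libraries, so that 6.98% of the FOXA2f/f level was left. Of 14417 genes tested, Foxa2 was the 1 gene called by edgeR's quasi-likelihood test at an adjusted p under 0.05 and a fold change of at least 2, or 0.00694%, and 745 genes (5.17%) had an unadjusted p under 0.05. By the same thresholds DESeq2 called 73 genes and edgeR's exact test 89.

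Hepatocyte markers were expressed in every library, with a summed level of 8 genes between 96730 and 145200 CPM. Most of that sum was Alb, at 83490 to 124600 CPM. Markers of other liver cells were present too. The summed levels of stellate cell, sinusoidal endothelial and macrophage markers overlapped between the groups. The 9 stellate cell and fibroblast markers summed to 885.9 to 2413 CPM in FOXA2f/f and 1424 to 2460 in FOXA2H-KO. The 9 sinusoidal endothelial markers summed to 255.4 to 902.6 and 500.5 to 584.7 CPM, and the 10 macrophage markers to 581.5 to 2609 and 1301 to 1881 CPM. In these last lists FOXA2f/f 2 was the lowest and FOXA2f/f 4 the highest of all 6 libraries, so the FOXA2f/f group spanned the FOXA2H-KO group. The exact two-sided permutation p, whose smallest value here is 0.1, was 0.5 for hepatocytes, 0.5 for stellate cells, 1 for endothelial cells and 0.9 for macrophages.

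Markers of other cell types had lower summed levels. Summed levels were 0.877 to 4.99 and 2.91 to 5.37 CPM for 7 lymphocyte markers (exact permutation p = 0.6), 7.79 to 62.8 and 17.0 to 26.6 CPM for 5 neutrophil markers (p = 0.4) and 9.44 to 15.2 and 11.4 to 23.0 CPM for 5 cholangiocyte markers (p = 0.3), in FOXA2f/f and FOXA2H-KO in that order. All 5 cholangiocyte markers had log2 fold changes above 0. Krt7 had 1.12, 0.548 and 1.21 CPM in FOXA2f/f libraries 1, 2 and 4 against 2.83, 1.36 and 1.71 CPM in FOXA2H-KO. Krt19 had 1.42, 0.987 and 1.14 against 3.38, 1.44 and 1.85 CPM. Both were without overlap between the groups, as 10.5% of all genes tested were, while Epcam, Sox9 and Muc1 overlapped. These 5 genes were named after their values were seen. The 4 adipocyte markers had 0 to 5 counts per library in all, and Lep had none (exact permutation p = 0.9). The 4 striated muscle markers summed to 0.987 to 1.40 CPM in FOXA2f/f and 1.51 to 2.78 in FOXA2H-KO, without overlap (exact permutation p = 0.1, the smallest possible), but nearly all of it was Tnnt2, at 0.932 to 1.37 and 1.43 to 2.73 CPM, and Ckm and Myh6, which define muscle, were at 0 in every library. Since the libraries are bulk RNA, fewer cells of a type and less RNA per cell cannot be told apart.

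Vldlr (ENSMUSG00000024924) lies on chromosome 19, 27216484 to 27254231, plus strand, GRCm38. Its RefSeq promoter table has 2 start sites, each given with 250 bases before and 50 after the start. The bases before the first start site are shown because Vldlr was the member with the large difference, and because the deleted factor binds DNA directly.
Vldlr, chr19:27216234-27216483, plus strand: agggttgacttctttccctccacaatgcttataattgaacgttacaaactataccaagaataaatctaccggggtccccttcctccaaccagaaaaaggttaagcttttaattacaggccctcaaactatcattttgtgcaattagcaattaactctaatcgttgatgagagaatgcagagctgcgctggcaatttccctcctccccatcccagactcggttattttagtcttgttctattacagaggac

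Promoter windows were found for 5 of the 8 genes, 7 windows in all, 2 each for Vldlr and Lipc and 1 each for Lrp1, Lrpap1 and Lsr. They were searched on both strands for 4 motifs: the forkhead core TGTTTNC that FOXA proteins recognise, the ATF4 and CHOP element TGATGNAA, the hypoxia element NACGTG, and the nuclear receptor repeat of AGGTCA spaced by 1 base. Among 32851 promoter windows of 300 bases, 20.5% held the forkhead core, 3.97% the ATF4 and CHOP element, 19.6% the hypoxia element and 0.0396% the repeat. The members' windows held 2 matches, shown here with the matching bases in capitals.
Vldlr, chr19:27216809-27216838, plus strand, ATF4 and CHOP element, minus strand match: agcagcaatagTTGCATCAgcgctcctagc
Lipc, chr9:70952283-70952312, minus strand, forkhead core: atggcttgggtTGTTTTCcttggtttcctt

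The Vldlr match began 200 bases before the second start site, and the Lipc match 80 bases before 1 of its 2 start sites. The forkhead core was thus found in 1 of the 7 windows, that of Lipc, and in neither window of Vldlr. These matches describe the letters of the windows and are not binding sites.

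Vldlr, the receptor for triglyceride-rich VLDL particles, had 219, 200 and 354 counts in FOXA2f/f libraries 1, 2 and 4, and 1174, 642 and 675 in FOXA2H-KO. Scaled to library size and TMM factor this was 9.41, 10.97 and 11.25 CPM against 43.2, 25.7 and 31.2 CPM. Every FOXA2H-KO library was above every FOXA2f/f library, the lowest of the former 2.29 times the highest of the latter. The log2 fold change was 1.66 with a standard error of 0.21, a 3.17-fold higher mean. FOXA2H-KO 1 was the highest library, and without it the log2 fold change was 1.43. The FOXA2H-KO libraries differed more among themselves, 1.68-fold from lowest to highest, than the FOXA2f/f libraries did, at 1.20-fold. The coefficient of variation was 26.7% in FOXA2H-KO and 9.42% in FOXA2f/f.

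Vldlr was 1 of 655 genes, 4.54% of those tested, that were higher in FOXA2H-KO without overlap between the groups, while 0 members were among the 859 genes (5.96%) that were lower without overlap. By edgeR's quasi-likelihood thresholds 0 of the 8 members were called, where 0.00694% of all genes were. DESeq2 called 1 member, Vldlr, against 0.457% of its genes, and edgeR's exact test called 1, also Vldlr, against 0.617%. Nothing is read from these counts, since Vldlr was chosen on the same contrast.

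**Figure D1:**
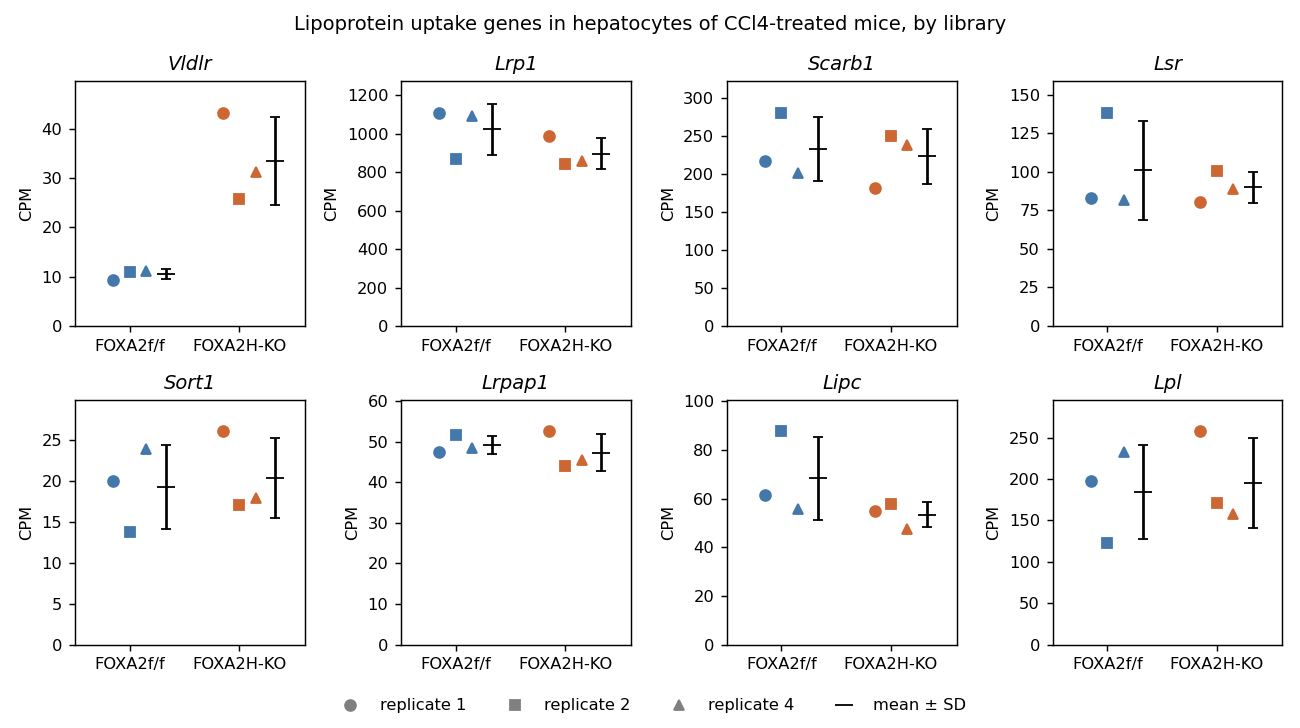
CPM of each of the 8 genes (y axis, from 0) in FOXA2f/f (blue) and FOXA2H-KO (orange) hepatocytes, with 1 point per library, the shape giving the replicate number and the bar the mean ± SD over 3 libraries. The Vldlr points of FOXA2H-KO, 25.7 to 43.2 CPM, lie above those of FOXA2f/f, 9.41 to 11.25 CPM, while the points of the groups overlap in the other 7 panels.

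Lrp1 (ENSMUSG00000040249, chromosome 10, 127538161 to 127621148, minus strand) encodes a large endocytic receptor that takes up chylomicron remnants. It had 1107, 870.0 and 1089 CPM in FOXA2f/f libraries 1, 2 and 4, and 987.5, 841.2 and 855.5 CPM in FOXA2H-KO. FOXA2f/f 2 was close to the FOXA2H-KO libraries, and the groups overlapped (log2 fold change −0.19, standard error 0.19).

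Scarb1 (ENSMUSG00000037936, chromosome 5, 125277087 to 125341094, minus strand) encodes the HDL receptor SR-BI. Its levels were 216.5, 280.2 and 200.8 CPM in FOXA2f/f and 181.5, 249.6 and 238.0 CPM in FOXA2H-KO. The highest library was FOXA2f/f 2 and the lowest FOXA2H-KO 1, and the spread within each group was larger than the difference between them (log2 fold change −0.06, standard error 0.19).

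Lsr (ENSMUSG00000001247, chromosome 7, 30957770 to 30973464, minus strand) encodes the lipolysis-stimulated lipoprotein receptor, which also takes part in tricellular junctions. It had 83.0, 138.1 and 81.6 CPM in FOXA2f/f and 80.6, 100.6 and 88.6 CPM in FOXA2H-KO. FOXA2f/f 2 was above the other 5 libraries, and the groups overlapped. The log2 fold change was −0.17 (standard error 0.22), and without that library it was 0.13. The Lsr count is uncertain, because 44.7% of its exonic bases are shared with annotated genes of the opposite strand, Gm17077 with 0 counts and Gm4673 with 168 to 346 counts, and without strand the reads of such partners cannot be told apart.

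Sort1 (ENSMUSG00000068747, chromosome 3, 108284082 to 108361511, plus strand) encodes sortilin, which sorts apolipoprotein B particles in the Golgi and binds lipoproteins at the cell surface. Its levels were 20.0, 13.8 and 23.9 CPM in FOXA2f/f and 26.0, 17.0 and 17.9 CPM in FOXA2H-KO. The groups overlapped in part, with FOXA2f/f 2 the lowest and FOXA2H-KO 1 the highest library (log2 fold change 0.08, standard error 0.25).

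Lrpap1 (ENSMUSG00000029103, chromosome 5, 35091501 to 35105766, minus strand) encodes RAP, the chaperone that keeps newly made LDL receptor family proteins, VLDLR among them, from binding ligands in the endoplasmic reticulum. It had 47.4, 51.6 and 48.6 CPM in FOXA2f/f, and 52.6, 44.0 and 45.4 CPM in FOXA2H-KO. Lrpap1 was the steadiest member within FOXA2f/f, with a coefficient of variation of 4.39%, and its log2 fold change was −0.06 (standard error 0.12). The groups overlapped, with FOXA2H-KO 1 the highest library and FOXA2H-KO 2 the lowest.

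Lipc (ENSMUSG00000032207, chromosome 9, 70798128 to 70952226, minus strand) encodes hepatic lipase, which acts on HDL and remnant particles. It had 61.6, 87.6 and 55.7 CPM in FOXA2f/f, and 54.8, 57.7 and 47.6 CPM in FOXA2H-KO. Lipc had the lowest log2 fold change of the 8 genes, −0.35 (standard error 0.19). FOXA2f/f 2 was above the other 5 libraries, and without it the value was −0.13, no longer the lowest, with Lrp1 at −0.29 and Lpl at −0.14.

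Lpl (ENSMUSG00000015568, chromosome 8, 68880491 to 68907448, plus strand) encodes lipoprotein lipase, which releases fatty acids from circulating triglyceride and is made mainly outside hepatocytes, in fat, muscle and macrophages. It had 197.9, 122.5 and 232.7 CPM in FOXA2f/f and 257.6, 171.0 and 157.8 CPM in FOXA2H-KO. FOXA2f/f 2 was the lowest and FOXA2H-KO 1 the highest library, and the groups overlapped (log2 fold change 0.08, standard error 0.28).

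Over all 8 genes 3 log2 fold changes were above 0 and 5 below, with a median of −0.06, where the median of all genes tested was −0.01 and 47.8% were above 0. All 8 genes passed the filter on low counts. Scaling by library size alone moved the median of all genes to 0.10 and turned the signs of Scarb1 and Lrpap1, to 0.07 each, but relative to that median they were at −0.04 and −0.03.

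**Figure D2:**
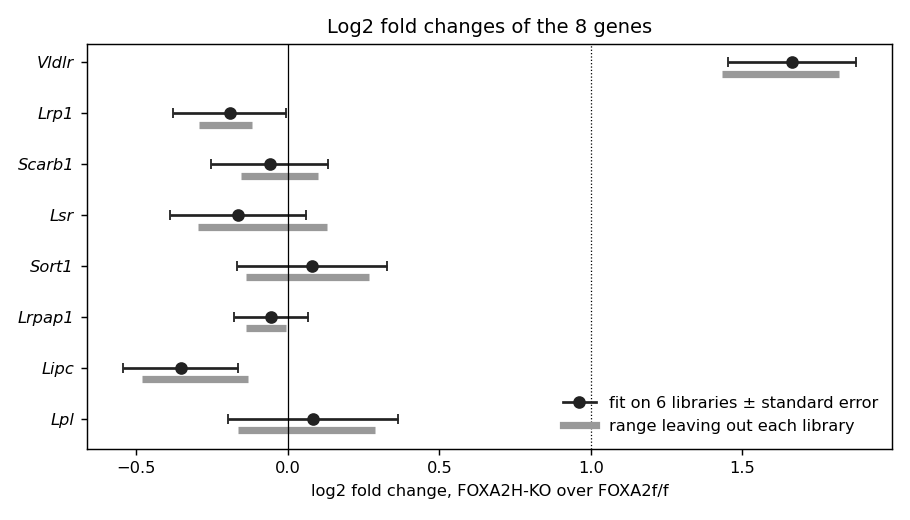
Log2 fold change of FOXA2H-KO over FOXA2f/f (x axis) for each gene (y axis), with points and whiskers for the fit on all 6 libraries ± standard error and grey bars for the range of the fits that each left out 1 library. The dotted line marks 2-fold. Vldlr, at 1.66 with a range of 1.43 to 1.82, lies beyond that line, and the other 7 genes lie between −0.35 and 0.08.

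Levels were compared between genes per length, in the authors' FPKM (fragments scaled to gene length and to the total count). In FOXA2f/f the order of mean FPKM was Lrp1 (47.4), Lipc (33.7), Lpl (23.7), Lsr (22.7), Scarb1 (18.0), Lrpap1 (8.53), Sort1 (1.14) and Vldlr (0.714). Vldlr was thus the least expressed of the 8 genes, although it was not below Sort1 in every pair of libraries. Neighbours from Lrp1 down to Scarb1 overlapped, while Scarb1 was above Lrpap1, and Lrpap1 above Sort1, in every pair.

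In FOXA2H-KO the order of mean FPKM was Lrp1 (44.9), Lipc (29.1), Lpl (27.0), Lsr (22.3), Scarb1 (18.8), Lrpap1 (8.95), Vldlr (2.47) and Sort1 (1.30). Vldlr had passed Sort1, and its lowest library, at 1.84 FPKM, was above the highest of Sort1, at 1.77. It remained below Lrpap1 in every pair of libraries. The neighbours Lipc and Lpl, and Lpl and Lsr, overlapped. The lengths behind FPKM differ from the exon lengths in GENCODE M21, for example 16550 against 7569 bases for Sort1. With the M21 lengths (CPM per kilobase) the mean of Vldlr was again the lowest in FOXA2f/f, at 1.05, and above Sort1 in FOXA2H-KO, at 3.32 against 2.69, but there the libraries of these genes overlapped and the order of the genes above them changed.

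Among 12858 genes with a mean of at least 1 CPM, those whose log2 CPM followed Vldlr most closely over the 6 libraries were Map3k13 (Pearson r = 0.99), Dhrs9 (0.99), Parg (0.98), Usp25 (0.98) and Nck2 (0.98). These coefficients describe 6 points in separate groups, so any gene without overlap between groups ranks high. Map3k13, which encodes a kinase of the stress-activated JNK pathway, had 15.7, 16.2 and 18.2 CPM in FOXA2f/f and 32.3, 24.3 and 28.4 CPM in FOXA2H-KO (log2 fold change 0.76). Dhrs9, a retinol dehydrogenase gene, had 6.96, 8.23 and 8.17 against 16.99, 11.59 and 12.76 CPM (log2 fold change 0.82), and Nck2, an adaptor of receptor kinases, a log2 fold change of 0.63. In each of these genes, Parg and Usp25 included, the FOXA2H-KO libraries stood in the order of Vldlr, with library 1 highest and 2 lowest. The genes were picked by correlation over these same libraries, so nothing is read from the shared order. Parg and Usp25 had log2 fold changes of 0.15 and 0.16, beside 1.66 for Vldlr.

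Among the genes that ran most opposite to Vldlr were Dsg1c (r = −0.99), Prss36 (−0.99), Rab24 (−0.98) and Tfr2 (−0.98). Dsg1c, a desmosomal cadherin gene, had 11.38, 9.65 and 9.76 CPM in FOXA2f/f and 3.13, 4.77 and 5.13 CPM in FOXA2H-KO, a log2 fold change of −1.24. Tfr2, the transferrin receptor by which hepatocytes sense iron, had 359.9, 330.5 and 307.5 against 224.4, 249.9 and 235.7 CPM (log2 fold change −0.49). Prss36 had a log2 fold change of −0.45 and Rab24 of −0.26. In none of these genes, or of those that followed Vldlr, was the adjusted p of edgeR's quasi-likelihood test under 0.579.

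The other 7 members were compared with each other over the 6 libraries, in log2 CPM, as 21 pairs. For Sort1 and Lpl Pearson's r was 0.98 (exact permutation p = 0.00278, adjusted over the pairs 0.0175) and Spearman's rho 0.94 (exact permutation p = 0.0167, adjusted 0.0583). Without the 2 libraries farthest from the median of Sort1 r was 0.94. In both genes FOXA2f/f 2 was the lowest library, and FOXA2H-KO 1 and FOXA2f/f 4 were the highest. Scarb1 ran the other way, with r = −0.99 against Sort1 (exact permutation p = 0.00139, adjusted 0.0146; rho −1, p = 0.00278, adjusted 0.0194; r = −0.98 without the 2 farthest libraries). Against Lpl it had r = −0.98 (p = 0.00417, adjusted 0.0175; rho −0.94, adjusted 0.0583; r = −0.92 without the 2 farthest, all exact permutation tests).

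Lsr went with Scarb1 (r = 0.88, exact permutation p = 0.00417, adjusted 0.0175; rho 1, p = 0.00278, adjusted 0.0194; r = 0.91 without the 2 farthest libraries). Its r was −0.89 with Sort1 (exact permutation p = 0.00139, adjusted 0.0146) and −0.88 with Lpl (p = 0.0111, adjusted 0.0389), with rho −1 and −0.94, and r = −0.91 and −0.97 without the 2 farthest. The other 15 of the 21 pairs had an adjusted p of Pearson's r above 0.05. Except for Sort1 and Lpl these relations moved with the scaling. In FPKM, which carries no TMM factor, r for Sort1 and Lpl was 0.99, but 0.76 for Scarb1 and Lsr, −0.55 for Scarb1 and Sort1, −0.56 for Scarb1 and Lpl, −0.53 for Lsr and Sort1 and −0.54 for Lsr and Lpl, and 0 of the 21 pairs kept an adjusted p under 0.05 (exact permutation tests, 0.0729 for Sort1 and Lpl). Lrp1 had r = 0.93 with Lpl and 0.92 with Sort1 in FPKM (exact permutation tests, adjusted p = 0.0729 and 0.0778), against 0.695 and 0.68 in CPM. The log2 CPM itself had r = 0.83 for Sort1, 0.81 for Lpl, −0.77 for Scarb1 and −0.68 for Lsr and Lipc with the log2 TMM factor. For Lrp1 and Lrpap1 it was 0.24 and 0.05. The FPKM scale and the comparison with the TMM factor were added after the CPM values were seen.

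Summed stellate cell, macrophage and hepatocyte markers varied along the same libraries. Over the 6 libraries Lpl had r = 0.82 with the summed stellate cell markers (exact permutation p = 0.0514) and 0.83 with the macrophage markers (exact permutation p = 0.0375), and Sort1 had 0.86 and 0.80 (exact permutation p = 0.0361 and 0.0514). With the hepatocyte markers r was −0.92 for Sort1 (exact permutation p = 0.0167), −0.91 for Lpl (exact permutation p = 0.0139) and 0.89 for Scarb1 (exact permutation p = 0.0222). The hepatocyte sum was mostly Alb, so these values largely describe that gene. With the sinusoidal endothelial markers it was 0.67 for Lpl and 0.68 for Sort1 (exact permutation p = 0.135 and 0.124). Adjusted over the 28 relations of 7 genes with 4 marker lists, 0 were under 0.05 and the smallest was 0.185. Without the 2 libraries farthest from the median of the markers the r with stellate cell and macrophage markers were 0.49 and 0.45 for Lpl and 0.61 and 0.34 for Sort1, and those with hepatocyte markers −0.64 for Sort1, −0.69 for Lpl and 0.52 for Scarb1. Those with endothelial markers changed sign, to −0.59 for Lpl and −0.47 for Sort1. The part of other cells in the levels of Lpl, Sort1 and Scarb1 was not tested. Within FOXA2H-KO the order of Vldlr (43.2, 25.7 and 31.2 CPM) was that of the stellate cell markers (2460, 1424 and 1515 CPM). It was also that of the cholangiocyte markers (22.99, 11.39 and 14.98 CPM), but not that of the hepatocyte, endothelial or macrophage markers. Within FOXA2f/f library 4 was the highest in Vldlr and in the stellate cell markers, at 11.25 and 2413 CPM. The lowest was library 1 for Vldlr, at 9.41 CPM, but library 2 for these markers, at 885.9 CPM. The cholangiocyte markers there ran opposite to Vldlr, at 15.21, 11.08 and 9.44 CPM. FOXA2f/f 4 was close to FOXA2H-KO 1 in stellate cell markers (2413 and 2460 CPM) and far below it in Vldlr (11.25 and 43.2 CPM). The part of other cells in the Vldlr level was not tested.

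**Figure D3:**
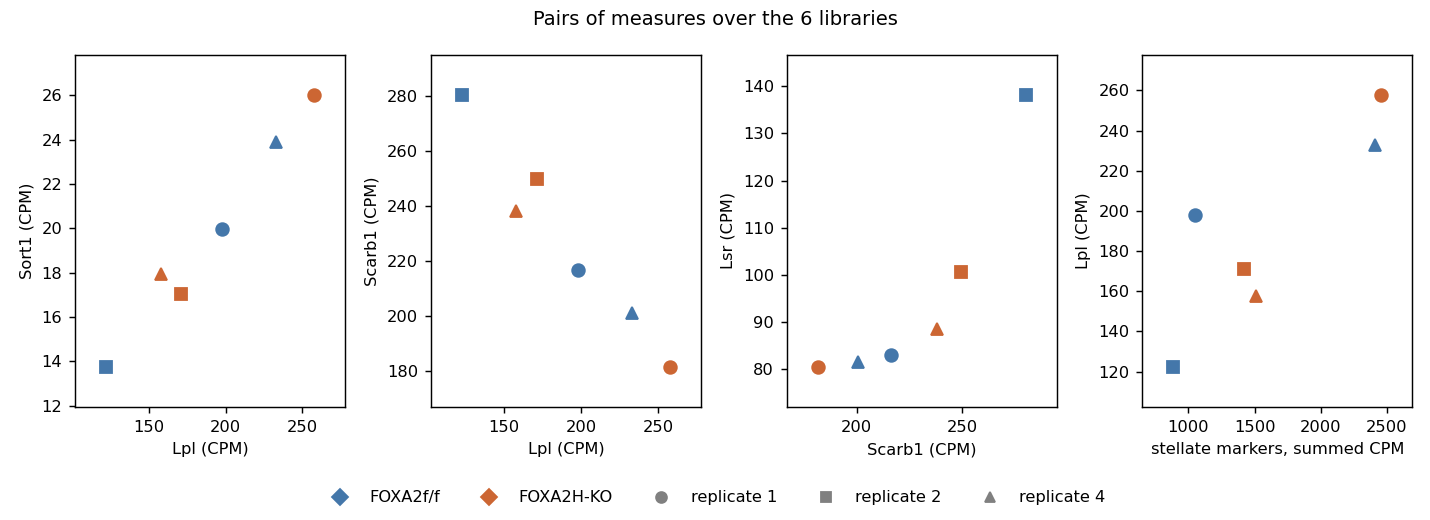
Pairs of measures in CPM over the 6 libraries: Sort1 and Scarb1 against Lpl, Lsr against Scarb1, and Lpl against the summed stellate cell markers, with colour for the group and shape for the replicate number. Sort1 rises with Lpl (r = 0.98 in log2 CPM) and Scarb1 falls with it (r = −0.98), with libraries of both groups along each trend, and FOXA2f/f 2 lies at an end in each panel.

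The other genes of lipoprotein uptake were read as 8 lists of 74 genes, 69 of which passed the filter on low counts. Of these 0 were called by edgeR's quasi-likelihood test, DESeq2 or edgeR's exact test. In the first, where 5.17% of all genes tested had an unadjusted p under 0.05, 3 of the 69 did, Sdc1, Angptl4 and Serpine2. That count ran from 0, without FOXA2H-KO 4, to 9, without FOXA2f/f 4, when 1 library was left out. Their log2 fold changes were above 0 in 36 and below 0 in 33 genes, with a median of 0.03. The groups did not overlap in 9 genes (13.0%), 4 higher and 5 lower in FOXA2H-KO, where 10.5% of all genes tested did not.

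**Figure D4:**
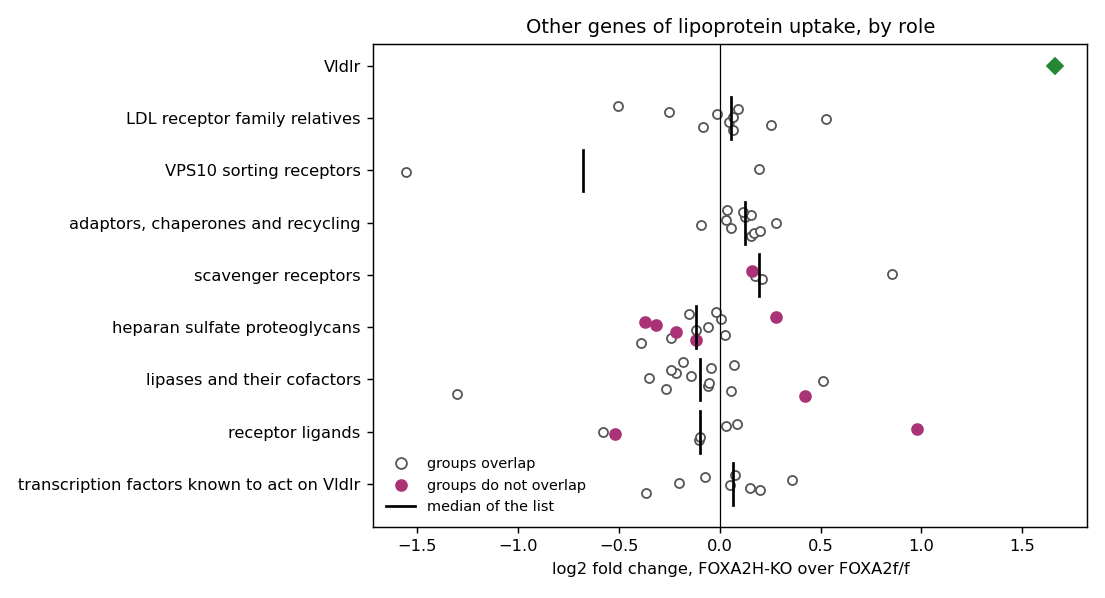
Log2 fold change of FOXA2H-KO over FOXA2f/f (x axis) of the 69 tested genes in 8 lists (rows), with filled points where the groups did not overlap, open points where they did, and a black line at the median of each list. Vldlr, the diamond in the top row at 1.66, is to the right of every gene in the lists, the highest of which is Serpine2 at 0.98.

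Of 10 tested relatives of Vldlr in the LDL receptor family, 6 were above 0 and 4 below, with a median of 0.05. The groups overlapped in all 10, where 10.5% of all genes tested were without overlap. Lrp8, the ApoE receptor 2 gene that is the nearest relative of Vldlr and shares its ligand reelin, was barely expressed, at 1.12, 0.274 and 0.540 CPM in FOXA2f/f and 0.625, 0.321 and 0.416 CPM in FOXA2H-KO (log2 fold change −0.51, standard error 0.57). Lrp5, a Wnt co-receptor, had 66.1, 83.2 and 91.8 against 68.8, 62.1 and 71.5 CPM (log2 fold change −0.25, standard error 0.15). Among the sorting receptors related to Sort1, Sorl1 had 9.15, 12.94 and 16.53 against 19.4, 13.4 and 11.5 CPM (0.20, standard error 0.27). Sorcs2 had 0.344, 6.80 and 0.890 against 0.552, 0.882 and 1.25 CPM, so that FOXA2f/f 2 set its log2 fold change of −1.56 (standard error 0.99). The 2 tested genes of that list had a median of −0.68.

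Adaptors, chaperones and recycling genes carry receptors in and back to the surface. Of 11 tested, 10 were above 0 and 1 below, with a median of 0.13. The groups overlapped in all 11, where 10.5% of all genes tested were without overlap. Snx17, a sorting nexin that returns Lrp1 and its relatives to the surface, had 14.6, 12.9 and 17.6 against 16.1, 18.7 and 15.5 CPM (log2 fold change 0.16, standard error 0.17). Ccdc93, of the complex that works with it, had 17.9, 19.9 and 26.5 against 24.8, 22.7 and 24.2 CPM (0.16, standard error 0.17). All 4 scavenger receptors were above 0, with a median of 0.19, and 1 was without overlap, the lysosomal receptor gene Scarb2 (0.16), named after its values were seen. Cd36, a fatty acid and oxidised lipoprotein receptor, had 165.5, 194.5 and 185.0 against 237.9, 213.4 and 178.1 CPM (0.21, standard error 0.16), and Olr1 was below 1 CPM in 5 of the 6 libraries (0.86, standard error 0.70).

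Heparan sulfate proteoglycans hold remnant particles at the hepatocyte surface. Of 13 tested, 10 were below 0 and 3 above, with a median of −0.12, and the groups did not overlap in 5 (38.5%, beside 10.5% of all genes tested). Sdc1, the main remnant-binding syndecan of hepatocytes, had 227.0, 251.2 and 195.9 CPM in FOXA2f/f against 172.4, 173.6 and 176.0 CPM, a log2 fold change of −0.37 (standard error 0.14, edgeR quasi-likelihood adjusted p = 0.918). Ndst1, which sulfates the heparan chains, had 123.6, 159.6 and 129.5 against 120.1, 101.9 and 109.8 CPM (−0.31, standard error 0.15, adjusted p = 0.941 in the same test). For both genes all FOXA2H-KO libraries were below all FOXA2f/f libraries. The same held for Gpc4 and Ext2, at −0.22 and −0.12, while Sdc4 was higher in every FOXA2H-KO library, at 0.28. These 3 genes were named after their values were seen.

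Of 14 lipases and cofactors 10 were below 0 and 4 above, with a median of −0.10. The groups did not overlap in 1 gene (7.14%, beside 10.5% of all genes tested). That gene was Angptl4, an inhibitor of lipoprotein lipase, with 144.8, 190.9 and 176.7 CPM in FOXA2f/f and 200.2, 217.2 and 269.1 CPM in FOXA2H-KO, a log2 fold change of 0.42 (standard error 0.18, edgeR quasi-likelihood adjusted p = 0.941). Angptl8, a feeding-induced regulator of the same lipase, had 130.3, 29.7 and 19.3 against 19.3, 15.6 and 38.0 CPM. Its log2 fold change of −1.30 (standard error 0.70) was set by FOXA2f/f 1.

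Of 7 receptor ligands 3 were above 0 and 4 below, with a median of −0.10, and the groups did not overlap in 2 genes (28.6%, beside 10.5% of all genes tested), 1 in each direction. Serpine2, a protease inhibitor cleared through Lrp1, had 7.56, 12.67 and 16.94 CPM in FOXA2f/f and 21.7, 18.3 and 33.4 CPM in FOXA2H-KO, a log2 fold change of 0.98 (standard error 0.33, edgeR quasi-likelihood adjusted p = 0.836). Reln, whose product reelin is a ligand of Vldlr and is made by stellate cells in the liver, had 259.3, 197.8 and 367.6 against 188.0, 193.3 and 194.9 CPM (−0.52, standard error 0.23, adjusted p = 0.941 in the same test). The FOXA2f/f 2 value of Reln was close to the FOXA2H-KO range.

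Of 8 transcription factors known to act on Vldlr 5 were above 0 and 3 below, with a median of 0.07. The groups overlapped in all 8, where 10.5% of all genes tested were without overlap. Atf4, the stress factor whose element was found in the second Vldlr window, had 74.1, 68.9 and 49.4 CPM in FOXA2f/f and 44.3, 50.2 and 54.8 CPM in FOXA2H-KO, a log2 fold change of −0.37 (standard error 0.18, edgeR quasi-likelihood adjusted p = 0.941). Ppara, the fatty acid receptor of hepatocytes, had 108.0, 78.6 and 88.5 against 89.7, 123.2 and 140.1 CPM (0.36, standard error 0.20, adjusted p = 0.957 in the same test). In both genes the ranges of the groups crossed. So they did in Ddit3, which encodes CHOP, the other factor of that element. It had 7.04, 4.00 and 9.41 CPM in FOXA2f/f against 7.54, 11.5 and 4.58 CPM (log2 fold change 0.20, standard error 0.40). Ddit3 was named after its values were seen.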

How the data were processed

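RNA-seq of 6 hepatocyte libraries was analysed. For each library the authors deposited whole-number read counts and FPKM values of 34745 genes. The submitters' processing notes name CASAVA 1.8, TopHat2 2.1.0, HTSeq, edgeR and the mm10 build. The annotation and the options of the counting are not given in the sources used here. FPKM values of the authors carry no scaling between libraries beyond the total count.

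Counts were fitted with edgeR 4.0.16 in R 4.3.3 (filterByExpr, TMM, quasi-likelihood test, Benjamini-Hochberg adjustment over 14417 genes, adjusted p under 0.05 and fold of at least 2). CPM are TMM-scaled. The 8 members and all lists were chosen with earlier results of these data known. The labels do not state that libraries came from separate cell preparations, so p-values measure the spread between libraries. Replicates were not near-identical (chi-square 35.9 to 123 times its degrees of freedom).

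Named genes were Foxa2, the members, the 2 genes of each list with the smallest p, and the 5 genes at each end of the correlation with Vldlr. A gene that this rule gives is not reported here. Single values and correlations were tested by exact permutation (SciPy 1.17.1). Alternatives were DESeq2 1.42.0, limma 3.58.1 on log2(FPKM + 1) and log2(FPKM + 0.1), other scalings and filters, edgeR's exact test, the replicate number as a block, no fold threshold, and each library left out. The code was tested on simulated data. Positions are from GENCODE M21 (GRCm38, the same assembly as mm10) and promoter sequences from RefSeq (GRCm38.p6).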

Additional observations from a re-analysis of the deposited data

How the results depend on the processing

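With 3 libraries per group and a biological coefficient of variation of 25.3% the number of genes called depended on the test. Against the 1 gene of edgeR's quasi-likelihood test, DESeq2 called 73, edgeR's exact test 89 and a fit without the low-count filter 2. Library size alone and limma on log2(FPKM + 1) or log2(FPKM + 0.1) called 0 each. Leaving out 1 library in turn gave 0 to 6, the highest without FOXA2f/f 2. Upper quartile scaling, a minimum of 10 counts in every library and no fold threshold each gave 1.

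The Vldlr log2 fold change was above 0 in all 15 alternatives. It did not pass the thresholds in edgeR's quasi-likelihood test and did, at 1.66 each, in DESeq2, edgeR's exact test and the fit without the low-count filter, calls that are no support since Vldlr was chosen on this contrast. It was 1.43 to 1.82 with 1 library left out and 0.99 in log2(FPKM + 1), a scale that understates low genes. Scarb1 turned to 0.065 with library size alone and to 0.061 in log2(FPKM + 1) and 0.064 in log2(FPKM + 0.1), and Lrpap1 to 0.069, 0.058 and 0.063 in that order. With 1 library left out the range was −0.16 to 0.10 for Scarb1, −0.30 to 0.13 for Lsr, −0.14 to 0.27 for Sort1 and −0.17 to 0.29 for Lpl, so the direction of these 4 genes was not fixed. It was −0.14 to −0.01 for Lrpap1, −0.29 to −0.12 for Lrp1 and −0.48 to −0.13 for Lipc. The direction turned without FOXA2f/f 2 in all 4, and also without FOXA2H-KO 1 in Scarb1, Sort1 and Lpl. The log2 ratio of summed endothelial markers ranged from −0.30 to 0.64, of macrophage markers from −0.20 to 0.88 and of lymphocyte markers from −0.023 to 0.92. The cause of these shifts was not tested.

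The replicate numbers did not act as a pairing. Log2 CPM was taken as the deviation from the group mean of each gene, and these deviations were correlated across genes between libraries. For same-numbered libraries r was −0.07, 0.03 and −0.23, and 0 of 3 correlated best with its own number. With the replicate number as a block 0 genes were called, and Vldlr was at 1.63.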
